A study of Homo sapiens with 6 samples.

Results

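Total RNA of Hep G2 cells carrying a *miR-195* mimic was compared directly with total RNA of Hep G2 cells carrying a *miR-497* mimic. Hep G2 is an established line of human liver tumor cells. The contrast rests on 2 of the 6 libraries of the series, 1 for each mimic, and was chosen by library, not by measured values. Both mimics were double-stranded RNA at 5 nM, and collection followed at 24 hours. The total RNA library of cells that received no transfection, labelled 0 hours, is given beside them as the background level, and the series also holds 1 Ago2-IP library from each of these 3 conditions. Transfection was therefore shared by the 2 sides of the contrast and absent from the non-transfected cells. Each condition had 1 library, so no spread between cultures could be measured and no test between conditions could be made. Levels are RPKM, read numbers scaled to transcript length and library size, as deposited. Of 21863 gene symbols, 11261 had an RPKM above 0 in both libraries and of at least 1 in one of them, and these are the genes measured here.

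A microRNA guides Argonaute proteins to messenger RNAs, mostly through sites in the 3′UTR that pair with its seed, the bases 2 to 8 counted from its 5′ end. Paired messengers are translated less and degraded faster. *miR-195* and *miR-497* are encoded close together on chromosome 17 and belong to the *miR-15/16* family, whose members share 1 seed and are known for lowering cyclins and cyclin-dependent kinases that carry cells from G1 into S phase. The mature strands of both, followed by their passenger strands, are shown because the contrast turns on where they match and where they differ, with the seed in capitals (RefSeq, GRCh38.p14, minus strand).
miR-195-5p, chr17:7017667-7017687: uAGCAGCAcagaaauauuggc
miR-497-5p, chr17:7017979-7017999: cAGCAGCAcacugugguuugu
miR-195-3p, chr17:7017628-7017649: cCAAUAUUggcugugcugcucc
miR-497-3p, chr17:7017938-7017959: cAAACCACacugugguguuaga
The mature strands carried the same base at 12 of 21 positions, and their longest shared stretch ran from base 2 to base 10. Beyond it the *miR-195* strand is rich in A and U and the *miR-497* strand in G and U. The passenger strands have different seeds.

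The total RNA of the 2 transfected cultures was alike for most genes. Of the 11261 genes, 10327 (91.7%) lay within 1.5-fold, and the median log2 ratio of RPKM with *miR-195* to RPKM with *miR-497* was -0.081. In what follows the log2 ratio is always this one, so that a negative value means a lower level with *miR-195*. The middle 95% of genes lay between -0.78 and 0.52. A lower level with *miR-195*, however small the gap, was found for 6923 genes (61.5%), the share against which the counts of lower genes below are to be read. At least 2-fold higher levels were found for 39 genes with *miR-195* (0.346% of those measured) and for 109 genes with *miR-497* (0.968%), and at least 1.5-fold higher levels for 1.73% of genes with *miR-195* and 739 genes (6.56%) with *miR-497*. Relative to the median of all genes the 2-fold counts were 48 and 79. Most of these genes were scarce: among the 6203 genes that reached 10 RPKM in one library, only 4 were at least 2-fold higher with *miR-195*, whereas 17 were so with *miR-497*. In a bulk library, fewer cells that express a gene and less of its RNA in each cell cannot be told apart.

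Read numbers recovered from the steps of the RPKM values summed to 18373613 under *miR-195* and 20086853 under *miR-497* over 13105 genes. They give each ratio an exact conditional binomial interval of 95%, which covers counting error only and no variation between cultures. For 9173 measured genes with recovered reads the median width of this interval was 0.26 on the log2 scale. The interval lay under 0 for 3604 genes, above 0 for 2007 and included 0 for 3562. The liver markers fitted the label: *AFP* stood between 4295 and 4884 RPKM, *APOB* between 1042 and 1241 and *ALB* between 53.4 and 61.4 in the 3 total RNA libraries, although *TTR*, the thyroid hormone carrier, reached only 1.52 to 4.81. Of 4 markers of other cell types, the leukocyte marker *PTPRC* and the fibroblast marker *DCN* were listed at 0 in all 3 libraries, whereas the fibroblast marker *COL1A1* lay between 0.089 and 0.38 RPKM and the endothelial marker *PECAM1* between 0.26 and 0.41.

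The ratio moved with the base composition of the transcript among protein-coding genes. Protein-coding genes were split into deciles by the G+C content of the annotated transcript. In the lowest decile (30.7% to 38.3% G+C) the median log2 ratio was 0.14, and in the highest (61.7% to 74.3%) it was -0.47. Across 10612 protein-coding genes of these 2 libraries Spearman's rho between the ratio and G+C was -0.665, a description across genes that are not independent replicates. Of the 85 protein-coding genes at least 2-fold lower with *miR-195*, 47 fell in the highest decile. The median G+C was 43.4% for the genes 2-fold higher with *miR-195*, 63.5% for those 2-fold higher with *miR-497* and 48.2% for all protein-coding genes. Against the non-transfected library, which both of the next comparisons share, the decile medians lay between -0.11 and 0.18 for *miR-195* and, more widely, between -0.26 and 0.65 for *miR-497*. The slope was thus steeper in the *miR-497* library. A second value is therefore given beside many results, in which every protein-coding gene was set relative to the median of its bin among 20 bins of G+C, here called the G+C-centred ratio. With this centring 26 genes were at least 2-fold higher with *miR-195* and 19 with *miR-497*.

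**Figure D1:**
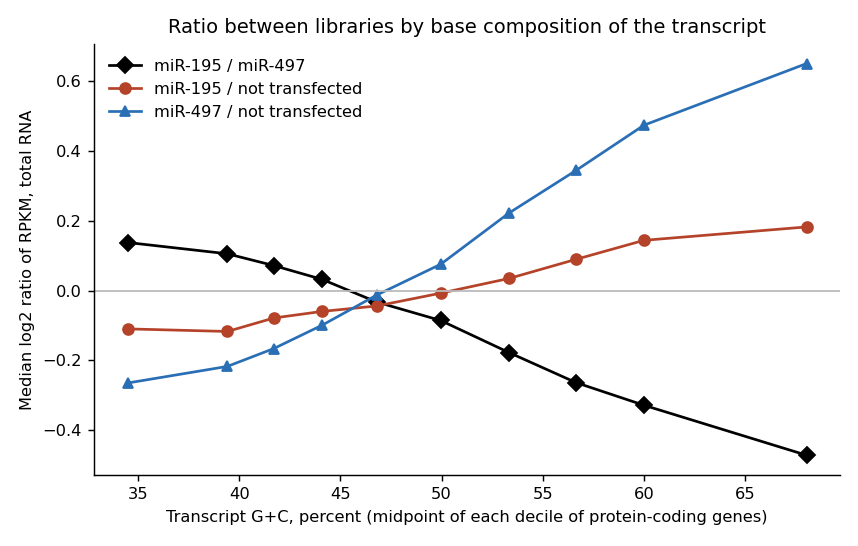
Median log2 ratio of RPKM (vertical axis) in each decile of protein-coding genes by transcript G+C in percent (horizontal axis), for *miR-195* over *miR-497* (black diamonds), *miR-195* over no transfection (red circles) and *miR-497* over no transfection (blue triangles), 1 library per condition. The black line falls from 0.14 to -0.47, and the blue line climbs more steeply than the red one.

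Genes with a seed site were lower with *miR-195* than with *miR-497*, although both mimics carry the same seed. A seed site was the sequence TGCTGCT, the complement of bases 2 to 8, on the transcript strand of any annotated 3′UTR, and overlapping matches were counted separately. Of 10608 measured genes with a 3′UTR, 3055 (28.8%) held it. Their median log2 ratio was -0.10, against -0.073 for the 7553 genes without it, a difference of -0.028. Genes with a site had longer 3′UTRs, with a median of 2683 bases against 1128. When each ratio was set relative to genes of like 3′UTR length and A+T content, the UTR-centred ratio, the difference was -0.060, and 58.1% of genes with a site lay under 0 against 46.7% of genes without. Each mimic against the non-transfected library gave a UTR-centred difference, -0.095 in the case of *miR-195* and -0.049 in that of *miR-497*. All of these differences are small beside the middle 95% of single genes.

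Genes with 2 or more sites differed more than genes with 1 site. The UTR-centred difference from genes without a site was -0.046 for 2133 genes with 1 site, -0.091 for 643 genes with 2 sites and -0.087 for 279 genes with 3 or more. With *miR-195* against no transfection the corresponding values were -0.069, -0.13 and -0.16, and with *miR-497* they were -0.033, -0.082 and -0.10. After UTR centring the direction was the same whichever base followed the site in the messenger, opposite base 1 of the microRNA. The UTR-centred difference was -0.088 where this base was A, -0.073 for T, -0.060 for G and -0.055 for C. Without centring these values were -0.005 for T, -0.058 for G and -0.075 for C, whereas for A the sign turned, to 0.012. Base 1 is U in *miR-195* and C in *miR-497*, so that by Watson-Crick pairing A matches only the former and G only the latter.

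**Figure D2:**
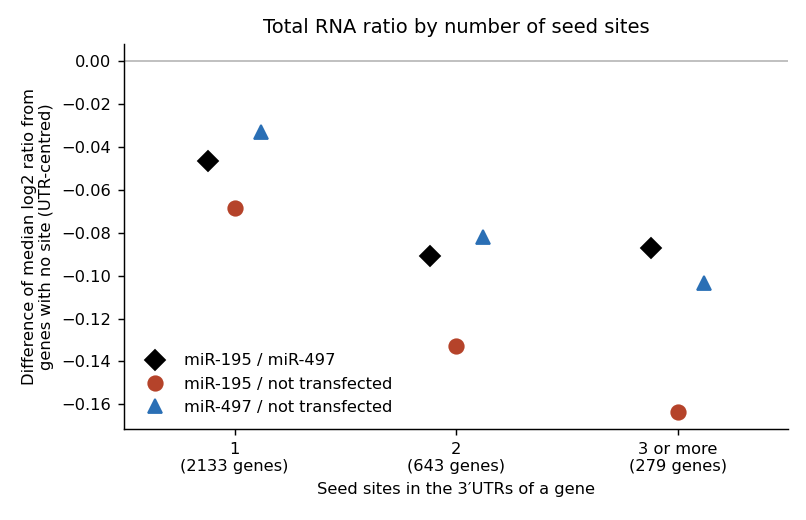
UTR-centred difference of the median log2 ratio from genes with no seed site (vertical axis) by the number of seed sites in the 3′UTRs (horizontal axis, with the number of genes), for *miR-195* over *miR-497* (black diamonds) and each mimic over no transfection (red circles and blue triangles). Every value lies under 0, and the *miR-195* points reach -0.16 at 3 or more sites against -0.10 for *miR-497*.

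Complements of the other parts of the 2 mature strands gave no such difference. Every window of 7 bases along each strand was complemented and searched in the 3′UTRs. On *miR-195* the windows starting at base 1 and base 2 had UTR-centred differences of -0.061 and -0.060, and on *miR-497* -0.038 and -0.060, the second being the shared seed. The window at base 3, also shared, had -0.023. From base 4 onward the values for both strands lay between -0.004 and 0.016. Of 14387 words of 7 bases found in at least 200 genes, the complements of *miR-195* bases 1 to 7 and of the seed were the seventh and eighth lowest, and the other words of the lowest 12 all contained CG and were found in 214 to 339 genes. The middle 95% of all words lay between -0.026 and 0.017. Without centring the seed word ranked at 2432. The passenger strand of *miR-497* gave the opposite sign: genes with the complement of its seed had a difference of 0.026 and those with the next window 0.025, whereas the passenger seed of *miR-195* gave 0.004. After centring, genes with the *miR-497* passenger word were thus slightly higher with *miR-195*, relative to genes without it. Without centring this word had 0.146, inside the middle 95% of uncentred words (-0.137 to 0.188). The passenger seed word of *miR-195* then had the larger value, 0.194.

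**Figure D3:**
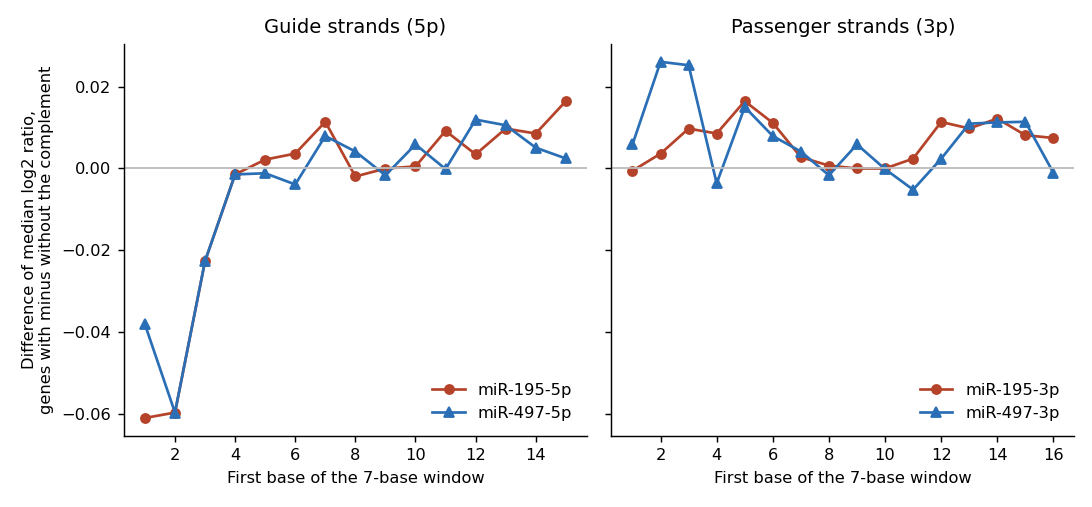
UTR-centred difference of the median log2 ratio between genes with and without the complement of each 7-base window (vertical axis) by the first base of the window (horizontal axis), for the mature 5p strands (left) and the passenger 3p strands (right) of *miR-195* (red circles) and *miR-497* (blue triangles). The mature strands dip to about -0.06 at the seed and lie near 0 from base 4, and the *miR-497* passenger strand peaks at 0.026 at its seed.

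Pairing outside the seed was compared through bases 13 to 16, where the mimics differ. The complement is TATT for *miR-195* and CCAC for *miR-497*, and it was looked for 2 to 8 bases before a seed site. Genes with a site and the *miR-195* complement (177 genes) had a UTR-centred difference of -0.10, and those with the *miR-497* complement (146 genes) had -0.084, against -0.055 for 2725 genes with neither. The 2 groups thus differed from genes without a site in the same direction. The uncentred values had opposite signs, 0.046 and -0.11, and the 3′UTRs of these groups had a median A+T content of 62.4% and 51.1%.

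Genes that promote entry into S phase differed widely among themselves in the gap between the mimics. Of 14 genes of this list, all measured, 10 were lower with *miR-195*, 3 of them by at least 1.5-fold, a share of lower genes not far from the 61.5% of all genes. The median log2 ratio was -0.42, against -0.081 for all genes. The G+C-centred median was -0.25. The order *miR-195* below *miR-497* below no transfection held for 10 of 14 genes, compared with 18.6% of all measured genes. The study picked several of these genes partly from the same libraries, so the direction of the list is not independent evidence. The sites of 6 of these genes are shown because the size of the gap differed among genes with the same site. Each stretch runs from 17 bases before the site to 1 base after it, with the site in capitals, and all lie in annotated 3′UTRs on GRCh37.
CCND3, chr6:41903057-41903081, minus strand: tgtgtgattgacagcttTGCTGCTg
CDC25A, chr3:48200063-48200087, minus strand: gagaagttacacagaaaTGCTGCTg
CDC25A, chr3:48199754-48199778, minus strand: cgctgtggtactggggcTGCTGCTa
CCNE1, chr19:30314914-30314938, plus strand: ccagtgcgtgctcccgaTGCTGCTa
CCNE1, chr19:30315152-30315176, plus strand: atgaactgttttgtaagTGCTGCTa
CDK4, chr12:58142965-58142989, minus strand: ggagtcgggagcacagcTGCTGCTg
CDK6, chr7:92238974-92238998, minus strand: aacacacataccctctcTGCTGCTt
CDK6, chr7:92238064-92238088, minus strand: ccgaggtcagagtgcccTGCTGCTg
CCND1, chr11:69468066-69468090, plus strand: atctctttcacattgttTGCTGCTa
None of these 9 stretches held the complement of bases 13 to 16 of either mimic at the distance searched.

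*CCND3*, which encodes cyclin D3, a partner of CDK4 and CDK6, had 10.7 RPKM without transfection, 3.42 under *miR-195* and 8.22 under *miR-497*, a log2 ratio of -1.27 (95% counting interval -1.49 to -1.05). *CDC25A*, the phosphatase that activates CDK2, had 18.6, 6.31 and 10.9 RPKM in the same order, a log2 ratio of -0.79 (-0.93 to -0.66). *CCNE1*, cyclin E1, had 21.0, 6.76 and 10.2 RPKM, a log2 ratio of -0.60 (-0.78 to -0.42). These 3 genes were lowest with *miR-195* and stood between with *miR-497*. *CDK4*, a kinase of the G1 phase, had 133 RPKM without transfection, 86.9 under *miR-195* and 129 under *miR-497*, a log2 ratio of -0.57 (-0.64 to -0.51). With *miR-497* its level was thus close to that of non-transfected cells. The G+C-centred ratios of these genes were -1.02, -0.64, -0.44 and -0.42.

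*BTRC*, a subunit that recognises substrates for a ubiquitin ligase, had 9.23 RPKM without transfection, 4.37 under *miR-195* and 5.90 under *miR-497*, a log2 ratio of -0.43. *CDK6* was at 52.3 RPKM without transfection and far lower with both mimics, 22.7 and 25.9 RPKM, so that its log2 ratio was only -0.19 (-0.24 to -0.15). *E2F3*, a transcription factor of S phase genes, had 9.35, 6.87 and 7.41 RPKM and a log2 ratio of -0.11, with a counting interval from -0.23 to 0.01. This difference was within counting error. *CCND1*, cyclin D1, had 43.8, 47.0 and 42.3 RPKM and a log2 ratio of 0.15 (0.10 to 0.21), the highest of the list, in spite of a site followed by A. *CCNE2*, *CCND2* and *SKP2* also had log2 ratios above 0, between 0.01 and 0.08, and each of their counting intervals included 0. After G+C centring *CCNE2* and *SKP2* turned to -0.039 and -0.10. *E2F1* and *E2F2* had log2 ratios of -0.54 and -0.49, which shrank to -0.175 and -0.207 after G+C centring. Among the inhibitors of these kinases, *CDKN2C* had 6.13, 2.99 and 4.79 RPKM and a log2 ratio of -0.68. *CDKN1B* and *RB1*, the gatekeeper of S phase entry, had -0.02 and 0.30.

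**Figure D4:**
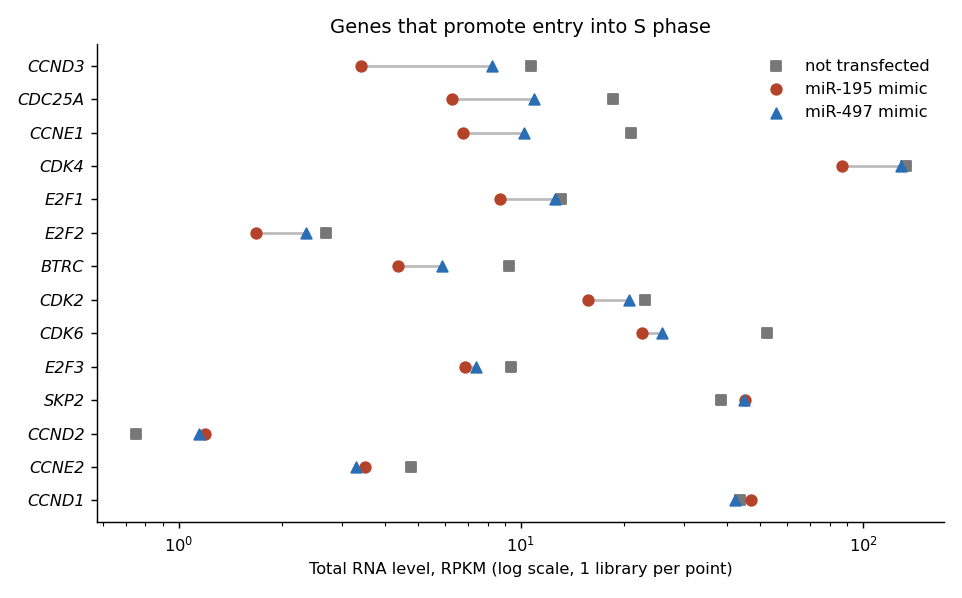
RPKM on a log scale (horizontal axis) of the 14 genes that promote entry into S phase in total RNA without transfection (grey squares), with *miR-195* (red circles) and with *miR-497* (blue triangles), 1 library per point. Grey lines join the mimics: *CCND3* spans 3.42 to 8.22 RPKM, and the lowest rows, from *SKP2* to *CCND1*, show little gap.

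DNA replication and mitosis genes were lower with *miR-195* almost throughout, with uncentred medians closer to 0, and G+C-centred medians slightly farther from 0, than those of the S phase regulators. Of 34 measured replication genes, 33 were lower with *miR-195*, compared with 61.5% of all genes, 4 of them by at least 1.5-fold, and the median log2 ratio was -0.32 (G+C-centred -0.26). Of 34 measured mitosis genes, 33 were lower, 5 of them by at least 1.5-fold, with a median of -0.26 (G+C-centred -0.30). The counting interval lay under 0 for 26 of 29 replication genes and 28 of 29 mitosis genes with recovered reads, compared with 39.3% of all genes with reads. The order *miR-195* below *miR-497* below no transfection held for 28 of 34 replication genes and 32 of 34 mitosis genes, compared with 18.6% of all measured genes. Against the shared non-transfected library the medians were -0.74 under *miR-195* and -0.46 under *miR-497* for replication, and -0.83 and -0.52 for mitosis.

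The widest gaps among replication genes were those of *CDT1*, which licenses origins, with 10.2 RPKM without transfection, 5.91 under *miR-195* and 11.3 under *miR-497* (log2 ratio -0.93), and *TK1*, thymidine kinase, with 35.0, 23.05 and 37.8 RPKM (-0.71). Both transcripts are rich in G+C, and their G+C-centred ratios were -0.41 and -0.28. *MCM7*, a subunit of the replicative helicase, had 81.6, 48.3 and 74.2 RPKM and a log2 ratio of -0.62. *PCNA*, the sliding clamp of the polymerases, had 471 RPKM without transfection, 279 under *miR-195* and 314 under *miR-497*, a log2 ratio of -0.17. *POLE2*, with 14.6, 8.74 and 8.72 RPKM, was the only replication gene without a lower level, at 0.005, and its G+C-centred ratio was -0.061. Among mitosis genes the kinase *AURKB* had 21.1, 10.4 and 17.8 RPKM (log2 ratio -0.78), *UBE2C*, a ubiquitin-conjugating enzyme of the anaphase-promoting complex, had 22.8, 11.4 and 19.0 RPKM (-0.73), and the kinase *PLK1* had 73.6, 41.5 and 67.1 RPKM (-0.69). *FOXM1*, a transcription factor of G2 and M genes, followed with -0.64. *CDK1*, the kinase that drives mitosis, had 78.3, 34.2 and 43.996 RPKM, a log2 ratio of -0.36 with a G+C-centred ratio of -0.49. *ECT2*, which acts in cytokinesis, was the exception, with 48.3, 42.8 and 34.2 RPKM and a log2 ratio of 0.32.

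Reported targets of the *miR-15/16* family had a median log2 ratio of -0.32 (G+C-centred -0.26), and 17 of 20 measured members were lower with *miR-195*, compared with 61.5% of all genes. The list shares *CCND1*, *CCND2*, *CCND3*, *CCNE1*, *CDC25A*, *CDK4*, *CDK6*, *E2F3* and *BTRC* with the paragraphs above. The study picked several of these from the same libraries, so the direction of the list is not independent evidence. *ARL2*, a small GTPase of tubulin folding with 4 annotated seed sites, had the widest gap. It overlaps a readthrough transcript into the next gene, so its reads may be shared. It had 11.8 RPKM without transfection, 1.57 under *miR-195* and 4.45 under *miR-497*, a log2 ratio of -1.50. The sites that overlap in its 3′UTR are printed because they lie within a run of repeats, at chr11:64789428-64789452 and chr11:64789431-64789455 on the plus strand of GRCh37.
ARL2, first site: cctcctccaccccagccTGCTGCTg
ARL2, second site: cctccaccccagcctgcTGCTGCTa
The first of these also held the complement of *miR-497* bases 13 to 16. *WEE1* and *CHEK1*, kinases that restrain entry into mitosis, had log2 ratios of -0.38 and -0.36, and *INSR*, the insulin receptor, had -0.51. All genes with a site followed by A were ranked if they had an RPKM of at least 5 in a mimic library, which *ARL2* did not reach. The lowest with *miR-195* were *CYBASC3* (6.06, 2.82 and 5.94 RPKM, log2 ratio -1.07) and *CDCA4*, a regulator of E2F activity (13.3, 3.81 and 7.65 RPKM, -1.01). The highest were *RAB3B*, a GTPase of vesicle transport (2.39, 6.71 and 2.87 RPKM, 1.23), and *ASPH*, an aspartyl hydroxylase (46.6, 52.0 and 28.7 RPKM, 0.86).

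**Figure D5:**
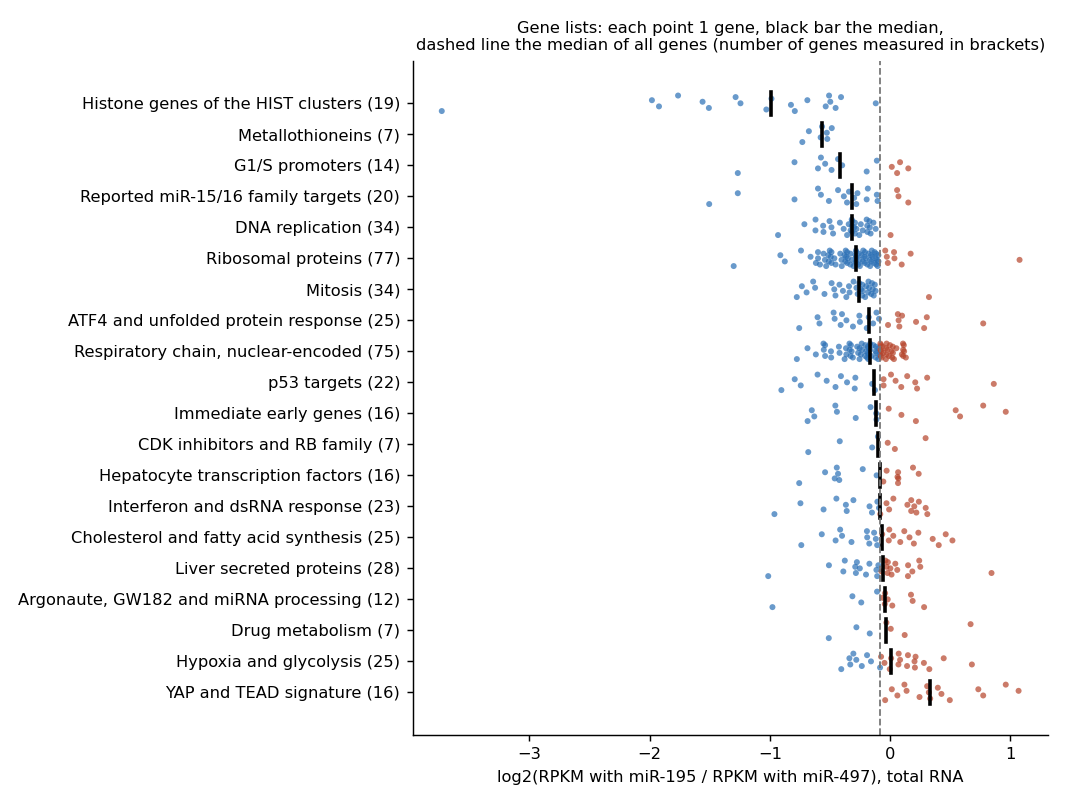
Log2 ratio of RPKM with *miR-195* to RPKM with *miR-497* (horizontal axis) for each measured gene (points) of 20 lists, with the list's median (black bars) and the median of all genes at -0.081 (dashed line); points are blue under that line and red above it. Histone genes and metallothioneins lie to the left as a whole, replication and mitosis genes lie left of the line except for 1 gene each, and the signature of YAP and TEAD, chosen after its values were seen, lies to the right.

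Beyond the cell cycle, the abundant genes with the widest gap toward lower levels with *miR-195* were mostly rich in G+C. *FGFR4*, a receptor for fibroblast growth factors in hepatocytes, had 45.1 RPKM without transfection, 19.4 under *miR-195* and 46.4 under *miR-497*, a log2 ratio of -1.26 (-1.34 to -1.18) and a G+C-centred ratio of -0.83. *FURIN*, a protease that matures secreted proteins, showed the same pattern with 19.1, 8.37 and 18.0 RPKM (-1.11, G+C-centred -0.74). Both stood with *miR-497* near the level of non-transfected cells. *TMUB1* had 11.2, 5.37 and 12.7 RPKM (-1.25), and *SP5*, a transcription factor induced by Wnt signals, had 37.02, 22.04 and 47.5 RPKM (-1.11). *IGF2*, a fetal growth factor whose locus also holds a readthrough transcript, had 3.88, 4.82 and 10.9 RPKM (-1.17), so that it was highest with *miR-497* and close to non-transfected cells with *miR-195*. *CHPF*, which builds chondroitin sulfate chains, was also highest with *miR-497*, with 29.6, 21.8 and 47.7 RPKM (-1.13). *NUDT4* had 8.71, 7.34 and 17.4 RPKM (-1.24) and has a near-identical copy with which reads may be shared. *HAMP*, the iron hormone hepcidin, was named after its values were seen: it had 16.8 RPKM without transfection, 2.16 under *miR-195* and 7.35 under *miR-497*, a log2 ratio of -1.77 (-2.44 to -1.14).

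The abundant genes higher with *miR-195* were few, and their transcripts were mostly poor in G+C. *SLC16A6*, of the monocarboxylate transporter family, had 36.1 RPKM without transfection, 69.0 under *miR-195* and 26.9 under *miR-497*, a log2 ratio of 1.36 (1.30 to 1.42). *OBFC2A*, a single-stranded DNA binding protein, had 9.07, 22.5 and 10.3 RPKM (1.12, interval 1.03 to 1.22), and *CYP24A1*, which inactivates vitamin D, had 17.8, 37.5 and 18.9 RPKM (0.99). In these last 2 genes *miR-497* cells stood near non-transfected cells. For *TMX3*, a disulfide isomerase of the endoplasmic reticulum, the reverse was seen, with 16.4 RPKM without transfection, 17.1 under *miR-195* and 6.87 under *miR-497* (1.31, interval 1.20 to 1.42). *TAF12*, a subunit of general transcription factor TFIID, likewise had 15.3, 15.5 and 8.42 RPKM (0.88). *SAA4*, a serum amyloid A protein, was scarcer, with 0.33 RPKM without transfection, 3.23 under *miR-195* and 1.07 under *miR-497* (1.60). *TP53INP1*, a p53 target, had 6.12, 15.2 and 8.38 RPKM (0.86). The G+C-centred ratios of *SLC16A6*, *OBFC2A*, *CYP24A1*, *TMX3*, *TAF12* and *TP53INP1* stayed between 0.75 and 1.26.

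*ANKRD1*, *CYR61* and *CTGF* were also among the genes with the widest gap toward *miR-195*, and all 3 are known to be induced by the coactivator YAP and the TEAD transcription factors, which the Hippo pathway restrains. A signature of 22 such genes was put together after these values were seen, so its direction supports nothing. *ANKRD1* had 197 RPKM without transfection, 535 under *miR-195* and 255 under *miR-497*, a log2 ratio of 1.07 (1.04 to 1.10). *CYR61* had 30.0, 70.0 and 35.9 RPKM (0.96) and *CTGF* had 92.6, 232 and 135 RPKM (0.78, interval 0.74 to 0.81). Of the 16 measured members 15 were higher with *miR-195*, compared with 38.5% of all genes, 4 of them by at least 1.5-fold, and the median was 0.33 (G+C-centred 0.41). The order no transfection below *miR-497* below *miR-195* held for 13 of 16, compared with 13.1% of all measured genes. *MYOF* had 2.03, 6.10 and 3.67 RPKM (0.73) and *AXL*, a receptor kinase, 2.87, 5.36 and 3.80 RPKM (0.50), whereas *LATS2*, a kinase of the Hippo pathway, had 8.37, 7.71 and 7.92 RPKM (-0.04).

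Most other programmes of the hepatocyte-derived cell lay near the median of all genes. The uncentred medians were -0.065 for 25 genes of cholesterol and fatty acid synthesis, -0.054 for 28 secreted liver proteins, -0.084 for 16 hepatocyte transcription factors, -0.081 for 23 interferon-response genes, 0.009 for 25 hypoxia and glycolysis genes and -0.14 for 22 p53 targets. In the same order the G+C-centred medians were 0.080, 0.082, -0.002, 0.058, 0.13 and -0.022. For several members the gap shrank after G+C centring. *FASN*, fatty acid synthase, had 55.9 RPKM without transfection, 62.9 under *miR-195* and 105 under *miR-497*, a log2 ratio of -0.74 that became -0.22 after centring. *FDXR* likewise went from -0.74 to -0.22. *PHLDA3*, another p53 target, kept more of its gap, with 8.24, 5.35 and 10.0 RPKM, a log2 ratio of -0.90 and a G+C-centred ratio of -0.60. *APOC3*, an apolipoprotein, had 8.65, 5.88 and 11.9 RPKM (-1.01), and *TTR* had 0.84 in the other direction. For 16 immediate early genes the median was -0.11 (G+C-centred 0.050), and for 25 genes of the ATF4 and unfolded protein response it was -0.18 (G+C-centred -0.004), from *CEBPB* at -0.76 to *DNAJB9*, a chaperone of the endoplasmic reticulum, at 0.78. The median of 12 genes of Argonaute, GW182 and microRNA processing was -0.042 (G+C-centred -0.022), with *EIF2C2*, which encodes Ago2, at 8.89, 7.11 and 7.42 RPKM (-0.06). *TARBP2*, a partner of Dicer, stood apart with 15.9, 9.31 and 18.3 RPKM, a log2 ratio of -0.98 and a G+C-centred ratio of -0.61. Of 7 measured drug metabolism genes the median was -0.030 (G+C-centred -0.010), and of 7 CDK inhibitors and RB family genes -0.10 (G+C-centred -0.053).

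Ribosomal proteins and metallothioneins were lower with *miR-195* as groups. Of 77 ribosomal protein genes 72 were lower (69 under the median of all genes), compared with 61.5% of all genes. At least 1.5-fold lower were 8 of the 77, compared with 6.56% of all genes. The median was -0.28 (G+C-centred -0.18). *RPL14* had 223 RPKM without transfection, 122 under *miR-195* and 224 under *miR-497* (-0.88). Its annotated 3′UTRs hold 9 matches to the seed site, which overlap within a single run of repeats and are not separate sites. Many ribosomal protein genes have processed pseudogenes, so the values of single members are uncertain. All 7 measured metallothioneins, which bind zinc and copper, were lower with *miR-195*, with a median of -0.57 (G+C-centred -0.41) and a range from -0.73 to -0.48. *MT2A* had 173, 152 and 213 RPKM, so the *miR-497* library was the highest of the 3. Against the shared non-transfected library the medians were -0.21 under *miR-195* and 0.30 under *miR-497* for metallothioneins, and -0.070 and 0.21 for ribosomal proteins. Metallothionein genes are near-identical, and reads may have been split among them. The 75 nuclear genes of the respiratory chain had a median of -0.17 (G+C-centred -0.095). Of these, 62 were lower with *miR-195*, compared with 61.5% of all genes, and only 47 lay under the median of all genes.

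Many of the widest ratios belonged to RNAs that were scarce in the total RNA libraries and are known to lack a poly-A tail. The methods state that libraries were made with or without poly-A selection, without saying which, and the part of this step was not tested. *RMRP*, the RNA of RNase MRP, had 1.961 RPKM without transfection, 5.34 under *miR-195* and 33.98 under *miR-497*, a log2 ratio of -2.67 (-3.17 to -2.20). *RPPH1*, the RNA of RNase P, had 2.49, 6.30 and 33.996 RPKM (-2.43, interval -2.84 to -2.04). In both, the *miR-497* library held several times the level of the other total RNA libraries. Their Ago2-IP levels were far higher. In the same order of conditions *RMRP* had 4826, 5600 and 3511 RPKM there, and *RPPH1* had 171, 863 and 401. Of the histone genes of the HIST clusters, whose messengers end in a stem-loop, 19 were measured and all were lower with *miR-195*, 9 of them by at least 2-fold, with a median of -0.99 (G+C-centred -0.74 over 16 of them). Their levels in total RNA were low, with *HIST1H3B* at 0.43, 0.43 and 1.71 RPKM (-1.98). *HIST1H1C*, among the most abundant, had 5.58, 4.61 and 8.16 RPKM (-0.82). Of 176 small nucleolar and Cajal body RNAs, 10 were at least 2-fold higher with *miR-195* and 12 with *miR-497*, with a median of -0.11. The counting interval excluded 0 in few of them, 2 above and 8 under it. Without histone genes and among protein-coding genes alone, 22 genes were at least 2-fold higher with *miR-195* and 78 with *miR-497*.

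The genes past 2-fold were set beside the non-transfected library. They were chosen by the gap between the same mimic libraries. A distance from the non-transfected level in the chosen direction was therefore partly fixed by the choice. Of 107 genes 2-fold higher with *miR-497* that were above 0 without transfection, 52 were at least 1.5-fold lower with *miR-195* than without transfection and 61 were at least 1.5-fold higher with *miR-497*. Of 38 genes 2-fold higher with *miR-195*, 26 were at least 1.5-fold higher with *miR-195* than without transfection and 13 were at least 1.5-fold lower with *miR-497*. Over all 11251 genes so compared, 806 were at least 1.5-fold higher and 697 lower with *miR-195*, and 1499 higher and 321 lower with *miR-497*. The non-transfected cells were not exposed to the transfection, so these counts hold its effect as well. In the direct contrast both sides were transfected, each in a separate culture. Whether the 2 cultures took up equal amounts of mimic was not tested.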

How the data were processed

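The authors sequenced 36-base single reads on a Genome Analyzer IIx, mapped them to hg19 with ELANDv2 and, with CASAVA 1.7, deposited 1 RPKM value per gene and library; the gene annotation is not given in the sources used here. RPKM were used as deposited, averaging the lines of 28 symbols listed more than once, with 0 value columns left unmatched. The log2 ratio used no pseudocount. With 1 library per condition no p-value was calculated. Reads were recovered as the smallest whole numbers in the ratio of the RPKM steps over all 6 libraries (13721 of 15486 genes), and 616 were dropped because the implied length differed from the annotated transcript, leaving 13105. On reads simulated from the recovered genes, 98.2% of those recovered again equalled the simulated numbers. The simulation left out genes without recovered reads, so it does not measure accuracy on the deposited values. Gene symbols were matched to GENCODE release 44 on GRCh37, 18208 directly and 2269 through older symbols, and 3′UTRs were read from the genome. Centring used 20 bins of G+C (added after the values had been seen), or 10 bins of 3′UTR length by 5 of A+T. Members and lists were chosen with earlier results of these data known. Genes were named by a rule: 8 cell cycle genes, the widest ratios among all genes, at 10 RPKM or more, in each list, among genes with a site followed by A, and among genes at 0 in one library; not all are printed. Calculations ran in Python 3.11.15 (pandas 2.3.3, numpy 2.4.6, scipy 1.17.1, matplotlib 3.10.9, pysam 0.24.0).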

Additional observations from a re-analysis of the deposited data

Results flagged for a closer look

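The median log2 ratio of the mimics, and the ratios of several cell cycle genes, had the opposite sign in the Ago2-IP libraries. These differences between the 2 kinds of library were not tested, since each condition had 1 library. RPKM are relative to library size, and reads recovered in Ago2-IP summed to 3255190 under *miR-195* and 1611315 under *miR-497*. The part of library size in the Ago2-IP median was not tested. The median log2 ratio of RPKM with *miR-195* to RPKM with *miR-497* was 0.761 over 11184 genes above 0 in both Ago2-IP libraries, against -0.081 in total RNA. *CCND3* had 1.71 in Ago2-IP and -1.27 in total RNA. *CCNE1* had 1.83 and -0.60, *CDK4* had 1.33 and -0.57, and *CDC25A* had 1.63 and -0.79. With such a median, a value above 0 in Ago2-IP was also that of a typical gene. *CDK6* (0.50), *BTRC* (0.67) and *E2F3* (0.758) lay under the Ago2-IP median. *CCND1* had the same direction in both kinds of library, with 2.13 in Ago2-IP and 0.15 in total RNA. Genes with a seed site had a UTR-centred difference of only 0.012 in Ago2-IP. The Ago2-IP medians also moved with base composition, from 0.26 in the lowest decile of G+C to 1.65 in the highest. The part of base composition in these values was not tested.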

How the results depend on the processing

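No paired analysis was possible because each condition had 1 library, and no library could be left out. The number of genes at least 2-fold higher depended most on the minimum level. It was 469 under *miR-195* and 547 under *miR-497* with no minimum, 21 and 54 with a minimum RPKM of 1 in both libraries, 4 and 15 with a minimum of 5 in both, and 10 and 27 with a pseudocount of 1. It was 22 with *miR-195* among protein-coding genes without histones, and 19 with *miR-497* after G+C centring. More genes were higher with *miR-497* in every one of these settings except G+C centring. The median of all genes was -0.073 with no minimum, -0.072 with a minimum of 5 in both and -0.071 with a pseudocount of 1. The difference between genes with and without a seed site was -0.060 with UTR centring, -0.058 with G+C centring and -0.049 for GCTGCT; for sites followed by A against all other genes it reversed to 0.021 without centring. *EIF2C2* reversed to 0.020 when ratios were set relative to the median of all genes, and no other gene named by the rule changed sign under the settings tried; of the genes cited as list members or markers, *CDKN1B* and *LATS2* lay between the median of all genes and 0, and *LATS2*, *CCNE2*, *SKP2*, *POLE2*, *AFP* and *ALB* changed sign with G+C centring. Of the named genes, G+C centring moved 54 and left 21, and a pseudocount of 1 moved 20 and left 73, counting as moved a shift wider than the counting error of the ratio, or any shift where no reads were recovered. Counting error weighs most on genes under 10 reads in either mimic library, 109 of the 9173 measured genes with recovered reads. It is not confined to them, since the counting interval included 0 for 3562 of these 9173 genes.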

Other observations

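Of all gene symbols, 746 were listed at 0 with *miR-195* only and 637 with *miR-497* only. Of these, 7 reached an RPKM of at least 1 with *miR-497* and 5 with *miR-195*. Those listed at 0 with *miR-195* were led by small RNA precursors, *MIR3615* at 2.94 RPKM, *MIR1291* at 2.69 and *MIR423* at 1.6995. Those listed at 0 with *miR-497* were led by *SNORD66* at 2.24 RPKM, *PLA2G4B*, a phospholipase, at 1.86 and *MIR130B* at 1.25. *SNORD66* rested on 5 recovered reads, and no reads were recovered for *PLA2G4B*.

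Other abundant genes had a wide G+C-centred ratio, in both directions; they were named after their values were seen. *ODC1*, the first enzyme of polyamine synthesis, had 290.2 RPKM without transfection, 129 under *miR-195* and 237 under *miR-497*, and a G+C-centred ratio of -0.82. *RARS*, the arginyl-tRNA synthetase, had 95.7, 40.5 and 70.1 RPKM (-0.87). Neither has an annotated seed site. *THBS1*, which encodes the matrix protein thrombospondin 1, had 7.21, 16.96 and 10.0 RPKM (0.77), *ANXA3*, an annexin, had 9.42, 29.4 and 16.8 RPKM (0.80) and *SUSD2* had 18.9, 60.2 and 45.5 RPKM (0.83). The uncentred ratio of *SUSD2*, whose transcript has 63.0% G+C, was only 0.40. In these 3 genes both mimics stood above the non-transfected library, *miR-195* the farther.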
